A study of Homo sapiens with 6 samples.

Results

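The proteasome is the protein-degrading machine whose subunits are encoded by the PSM genes. Its members here were the genes with a symbol made of PSM, a letter from A to G and a number, and on average 10 or more counts per library (6 libraries). This gave 47 genes among the 15126 analysed, of 60498 in the table. Symbols of the same form belonged to 50 genes, and 3 of them were under the minimum. PSMA8 and PSMB11, which encode tissue-restricted subunits, had 0 counts in every library, and a readthrough gene that carries the symbol PSMA1 had a mean count of 7.33. The member with the lowest mean was PSMG3, at 192 counts. The symbol PSMA2 stood on 2 members, of which ENSG00000256646 is annotated as a readthrough gene that shares 1445 exon bases with PSMA2 itself and is called the PSMA2 readthrough gene here. The 5 subunits set apart by the choice of members were PSMB8, PSMB9, PSMB10, PSME1 and PSME2, called induced here because interferon is known to raise them, and the other 42 members are called constitutive.

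RNA-seq was performed on SKOV3, an established human ovarian cancer cell line, in 3 forms that differ in STING1, the gene of the receptor for the second messenger cGAMP. The parent line carries a wild-type and a HAQ haplotype (WT/HAQ), and each of the derived lines WT/- and HAQ/- lost one STING1 allele through a pair of CRISPR guides and keeps the other. Cells received 10 μg/mL 2'3'-cGAMP for 30 min and rested for 4 h, or served as the control, whose handling is not described in the sources used here, and each line gave 1 control and 1 cGAMP library. Because WT/- and HAQ/- are clones, the haplotype and the clone cannot be told apart. Against the parent, the number of STING1 alleles cannot be told apart from them either. The STING1 level also differed between the lines and cannot be told apart from the haplotype. STING1 itself had a normalized count of 669 in the WT/HAQ control library, 353 in the WT/- control library and 213 in the HAQ/- control library. With cGAMP the same counts were 1780, 553 and 403.

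The core of the proteasome, the 20S particle, is a barrel of alpha rings and beta rings, and 3 of the beta subunits cut proteins: PSMB6 (beta1), PSMB7 (beta2) and PSMB5 (beta5). After interferon signaling, cells make PSMB9, PSMB10 and PSMB8, which take the places of these 3 subunits in newly built particles and give the immunoproteasome. The 19S regulatory particle recognizes and unfolds ubiquitinated proteins through its PSMC ATPases and PSMD subunits. PSME1 and PSME2 form PA28, an activator that opens the barrel without ubiquitin. The immunoproteasome and PA28 are best known for shaping the peptides that cells present on MHC class I.

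The libraries held from 12444791 to 17608427 counts. Members took between 0.442% and 0.515% of them. The 5 epithelial markers checked (KRT7, KRT8, KRT18, PAX8 and ERBB2) were all at or above 1966 normalized counts in every library and all lower with cGAMP in each line, with PAX8 at log2 fold changes of -1.78, -0.92 and -0.49. None of the 5 passed the edgeR test. The 4 leukocyte markers stayed at or below 3.80 normalized counts, and of the endothelial markers PECAM1 stayed at or below 17.7 and CDH5 at or below 9.33. Of the fibroblast markers, COL1A1 lay between 792 and 1121 and DCN between 152 and 268. The log2 fold change of DCN for WT/HAQ was 0.57 (95% counting interval 0.29 to 0.86), that for WT/- 0.41 (0.14 to 0.69) and that for HAQ/- -0.14 (-0.45 to 0.17), with an edgeR adjusted p of 0.347, and COL1A1 was at 0.20, 0.14 and 0.04. The difference between WT/HAQ and HAQ/- was 0.72 (0.30 to 1.14) for DCN, in the direction seen for the induced subunits. The part of these markers in the results was not tested. In bulk libraries, fewer responding cells and less RNA per cell cannot be told apart.

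Promoter sequences are shown for the 5 induced subunits, because they show what the upstream regions of these genes do and do not share. RefSeq gave start windows on GRCh38.p14, from 250 bases before to 50 bases after a start, for 40 of the 46 member symbols. The capitals mark matches on either strand to the core of the interferon-stimulated response element (ISRE, the letters GAAA, any 2 bases and GAAA again), which is bound by IRF factors and the ISGF3 complex, or to the gamma-activated site (GAS, TTC, any 3 bases and GAA), a short palindromic element of interferon-responsive promoters. They are printed 5′ to 3′ on the strand of the gene, for PSMB9 at chr6:32853942-32854241 (plus strand), PSMB8 at chr6:32843998-32844297 (minus strand, the second of its start windows), PSMB10 at chr16:67936801-67937100 (minus strand), PSME1 at chr14:24135944-24136243 (plus strand) and PSME2 at chr14:24146561-24146860 (minus strand).
PSMB9: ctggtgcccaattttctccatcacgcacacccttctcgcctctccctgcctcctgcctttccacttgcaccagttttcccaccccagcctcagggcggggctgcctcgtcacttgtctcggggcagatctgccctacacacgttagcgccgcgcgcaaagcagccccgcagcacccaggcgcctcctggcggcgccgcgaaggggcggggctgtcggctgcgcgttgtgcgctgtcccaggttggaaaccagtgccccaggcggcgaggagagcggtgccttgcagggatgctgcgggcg
PSMB8: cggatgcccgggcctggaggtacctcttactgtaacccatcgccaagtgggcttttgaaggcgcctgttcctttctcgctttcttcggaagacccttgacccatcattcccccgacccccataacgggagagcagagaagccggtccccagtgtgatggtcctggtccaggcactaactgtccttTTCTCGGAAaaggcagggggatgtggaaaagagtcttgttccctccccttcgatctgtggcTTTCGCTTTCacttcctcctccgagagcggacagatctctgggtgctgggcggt
PSMB10: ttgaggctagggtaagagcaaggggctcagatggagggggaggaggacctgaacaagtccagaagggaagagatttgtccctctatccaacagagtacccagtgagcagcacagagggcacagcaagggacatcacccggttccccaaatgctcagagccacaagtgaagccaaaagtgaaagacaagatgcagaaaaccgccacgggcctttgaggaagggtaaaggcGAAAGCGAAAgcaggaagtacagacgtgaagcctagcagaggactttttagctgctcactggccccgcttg
PSME1: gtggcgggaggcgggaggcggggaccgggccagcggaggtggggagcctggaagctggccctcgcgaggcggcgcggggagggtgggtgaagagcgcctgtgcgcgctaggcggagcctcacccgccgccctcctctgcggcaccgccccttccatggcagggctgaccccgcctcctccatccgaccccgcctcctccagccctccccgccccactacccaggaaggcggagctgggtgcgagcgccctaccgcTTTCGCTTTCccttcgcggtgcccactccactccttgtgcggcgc
PSME2: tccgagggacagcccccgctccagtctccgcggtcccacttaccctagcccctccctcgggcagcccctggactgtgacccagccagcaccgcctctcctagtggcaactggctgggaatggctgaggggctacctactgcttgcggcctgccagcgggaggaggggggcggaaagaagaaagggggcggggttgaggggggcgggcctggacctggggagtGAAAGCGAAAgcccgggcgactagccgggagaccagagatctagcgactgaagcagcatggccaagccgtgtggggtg
The ISRE core stood in a window of 4 of the 5 induced subunits and of 3 of the 35 constitutive symbols with a window, against 3.57% of the 35116 windows in the whole table. Counted from the start, with negative positions before it, the match began at -4 in PSMB8, -21 in PSMB10, -28 in PSME2 and 6 in PSME1. In all 4 the matched letters were the same, GAAAGCGAAA, read on the opposite strand in PSMB8 and PSME1. This exact form, looked at after its matches were seen, was in 35 of the 35116 windows (0.0997%). The only other member with it was PSMG4, a 20S assembly chaperone, at position -33. The window of PSMB9 held neither motif. The annotated start of the PSMB9 gene, 32844136, lies outside it, within the printed PSMB8 window that holds both motifs. The GAS in PSMB8 began at -65. The GAS was in 7.66% of all windows, in 1 of the 5 induced subunits and in 6 of the 35 constitutive symbols. Among the latter was PSMB5, the counterpart of PSMB8. The other catalytic counterparts, PSMB6 and PSMB7, had no start window. The other start window of PSMB8, chr6:32844630-32844929, which lies around the annotated start of the gene, held neither the ISRE core nor the GAS and is not printed. The constitutive symbols with an ISRE core of other letters were PSMB4 and PSMA4. The kappaB site (GGG, any 2 bases and TTTCC) was in 1.91% of all windows and in none of the induced subunits. The antioxidant response core (TGAC, any 3 bases and GC) was in 13.3% of all windows, in 3 induced subunits (PSMB9, PSME1 and PSME2) and in 12 constitutive symbols.

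Whether cGAMP raised the immunoproteasome was asked across the 3 lines and then line by line. PSMB9 rose in the test across the lines and was the only member called. All 5 induced subunits were higher with cGAMP than without it in each of the 3 lines, a pattern that 23.8% of all genes showed. Of the 42 constitutive members, 14 were higher and 5 lower in all 3 lines, against the same 23.8% and 26.5% of all genes. Over the other scalings and filters the induced count stayed at 5, and the constitutive counts ranged from 12 to 17 higher and from 3 to 7 lower. The induced subunits together made up 4.40% (95% Wilson interval 4.27 to 4.54) of the members' counts without cGAMP in WT/HAQ and 6.81% with it (6.64 to 6.98). In WT/- their share went from 5.64% (5.48 to 5.81) to 7.62% (7.41 to 7.84), and in HAQ/- from 4.03% (3.90 to 4.17) to 4.87% (4.71 to 5.03). These shares do not depend on how libraries are scaled, and the step was smallest in HAQ/-.

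The test was edgeR's quasi-likelihood F test on the 6 libraries, in which each line was a block, adjusted by the method of Benjamini and Hochberg over all 15126 genes. It called 1 of the 47 members as higher and 0 as lower, against 3.23% of all genes (2.27% higher and 0.959% lower). Before adjustment, 8 members had a p under 0.05, all higher with cGAMP, against 25.3% of all genes. They were the 5 induced subunits and PSMA3, PSMA4 and PSMA6 of the 20S alpha ring. DESeq2 called 3 members, PSMB9, PSMB8 and PSMA3, and 9.14% of all genes with an adjusted p. The edgeR test had 2 residual degrees of freedom. Since nothing says that the libraries are separate cultures, its p-values measure only the spread between these libraries. With the line as a block, this spread includes any difference in response between the lines. A smaller response in HAQ/- therefore counts as error in this test.

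Among the members, the largest response was that of a catalytic subunit of the immunoproteasome. PSMB9 (ENSG00000240065, chr6:32844136-32859851 on GRCh38, plus strand) encodes the immunoproteasome beta1 subunit. Its normalized count went from 221 to 735 in WT/HAQ, from 358 to 880.2 in WT/- and from 188 to 389.7 in HAQ/-. Every cGAMP library was above every control library. The log2 fold change, cGAMP over control, was 1.73 (95% counting interval 1.53 to 1.94), 1.30 (1.11 to 1.48) and 1.05 (0.80 to 1.29) in WT/HAQ, WT/- and HAQ/-. The mean was 1.36 ± 0.35 (SD, n = 3 lines), with an adjusted p of 0.0173 by edgeR, which was 0.219 without the line as a block, 0.303 without WT/- and 3.76e-09 by DESeq2.

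PSMB8 (ENSG00000204264, chr6:32840717-32844679, minus strand) encodes the beta5 subunit of the immunoproteasome. Its normalized count went from 917 to 1617 in WT/HAQ, from 977 to 1616 in WT/- and from 892 to 1106 in HAQ/-. The control libraries lay close together in all 3 lines and below every cGAMP library, and HAQ/- with cGAMP was well below the other lines. The log2 fold change was 0.82 (0.71 to 0.93), 0.73 (0.61 to 0.85) and 0.31 (0.18 to 0.43) in the same order of lines. The edgeR adjusted p was 0.0629, and it ranged from 0.000922 without HAQ/- to 0.405 without WT/- over 9 alternatives.

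PSMB10 (ENSG00000205220, chr16:67934506-67936864, minus strand) encodes the beta2 subunit of the immunoproteasome. It had 348 normalized counts without and 515 with cGAMP in WT/HAQ, 573 and 719 in WT/-, and 317 and 335 in HAQ/-. The cGAMP and control libraries overlapped between lines, since the WT/- control library was above the cGAMP libraries of WT/HAQ and HAQ/-. The log2 fold change was 0.56 (0.38 to 0.75), 0.33 (0.16 to 0.49) and 0.08 (-0.14 to 0.30), and the mean of 0.32 ± 0.24 (SD, n = 3 lines) had an edgeR adjusted p of 0.156. In HAQ/- a change of PSMB10 was not detectable at this depth.

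The genes of PSME1 and PSME2, the subunits of PA28, are neighbors on chromosome 14 in opposite orientations. PSME1 (ENSG00000092010, chr14:24136163-24138967, plus strand) had normalized counts of 1422 and 1882 in WT/HAQ, 1457 and 1955 in WT/-, and 1196 and 1322 in HAQ/-, without and with cGAMP. The HAQ/- library with cGAMP was below the control libraries of WT/HAQ and WT/-. For PSME1 the log2 fold change was 0.40 (0.31 to 0.50), 0.42 (0.32 to 0.53) and 0.14 (0.03 to 0.26), with an edgeR adjusted p of 0.0994. PSME2 (ENSG00000100911, chr14:24143362-24147570, minus strand), which the study also lists in its interferon signature, went from 540 to 823 in WT/HAQ, from 610 to 723 in WT/- and from 416 to 562 in HAQ/-. It was the induced subunit whose smallest response was not in HAQ/-, with log2 fold changes of 0.61 (0.46 to 0.76) for WT/HAQ, 0.24 (0.08 to 0.41) for WT/- and 0.43 (0.25 to 0.61) for HAQ/-. Its edgeR adjusted p was 0.0761.

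**Figure D1:**
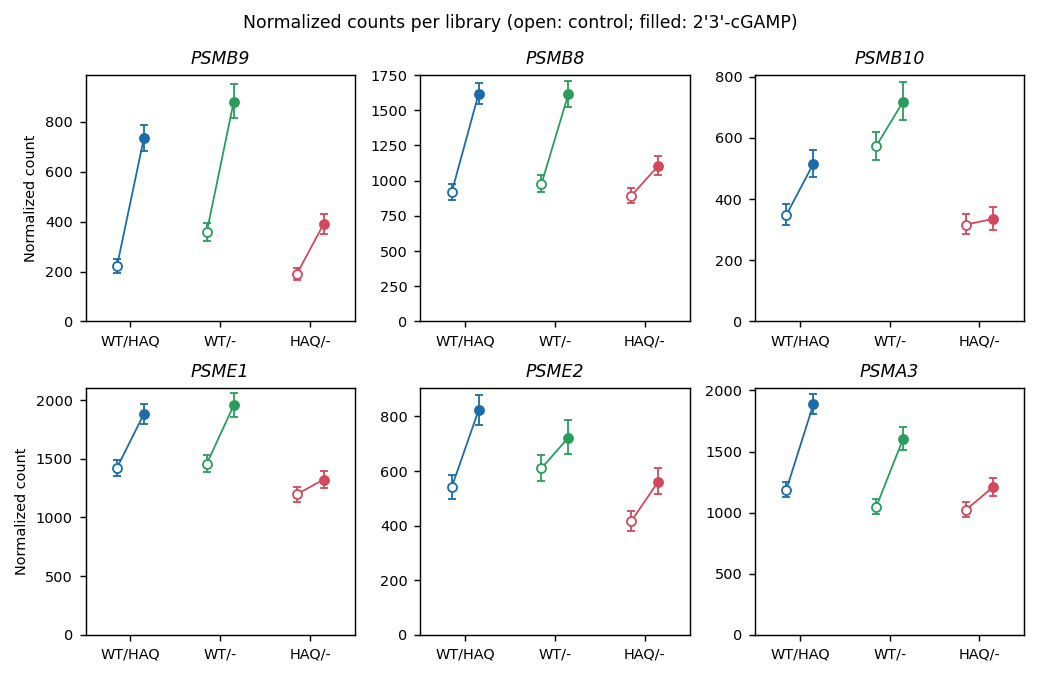
Normalized counts of the 5 induced subunits and PSMA3 in each library, by line, with open points for control, filled points for cGAMP and bars for the 95% counting interval of 1 library. PSMB9 climbs in every line, while PSMB10 reaches only 335 in HAQ/- with cGAMP against 719 in WT/-.

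Among the constitutive members, PSMA3 stood apart. PSMA3 (ENSG00000100567, chr14:58244843-58272012, plus strand) encodes alpha7 of the 20S ring. Its normalized count went from 1189 to 1887 in WT/HAQ, from 1046 to 1605 in WT/- and from 1023 to 1208 in HAQ/-. All 3 cGAMP libraries were above the 3 control libraries, by a narrow margin in HAQ/-. The log2 fold change of 0.67 (0.57 to 0.77), 0.62 (0.50 to 0.74) and 0.24 (0.12 to 0.36) was of the size seen in PSMB8, and the edgeR adjusted p was 0.0720. Its RefSeq window held neither the ISRE core nor the GAS. PSMA3-AS1, an antisense gene over the same locus that shares 0 exon bases with it, had log2 fold changes of -0.41, -0.20 and -0.18.

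The constitutive counterparts of the catalytic subunits did not share this pattern. PSMB5 (chr14:23016543-23035230, minus strand) had 942 and 842 normalized counts in WT/HAQ, 676 and 781 in WT/-, and 789.5 and 764 in HAQ/-. PSMB6 (chr17:4796144-4798502, plus strand) had 463 and 506, 436 and 462, and 427 and 399.5 in the same order. PSMB7 (chr9:124353465-124415444, minus strand) had 2266 and 2243, 2057 and 2177, and 2109 and 2208. Their log2 fold changes lay between -0.16 and 0.21, and their edgeR adjusted p-values were 0.991, 0.815 and 0.727.

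The rest of the machine was described by role. In the 20S alpha ring, 5 of 7 members were higher in all 3 lines (4 with total counts in place of TMM scaling), and the median log2 fold change came to 0.08, 0.20 and 0.03 in the order WT/HAQ, WT/- and HAQ/-. PSMA6 (alpha1) had 3007 and 3578 normalized counts in WT/HAQ, 2609 and 3306 in WT/-, and 2409.6 and 2579 in HAQ/-. Its log2 fold change was 0.25, 0.34 and 0.10 in these lines, with an edgeR adjusted p of 0.150. The 4 beta subunits without a catalytic role, PSMB1 to PSMB4, were higher in all 3 lines, by at most 0.22 on the log2 scale, and 3 of them were with total counts. The 6 ATPases of the 19S particle ranged from -0.11 to 0.23 and its 11 other subunits from -0.19 to 0.13 over the lines, and PSMD11, a lid subunit, had the lowest mean among the latter. PSMD11 had 1750.2 and 1535 normalized counts in WT/HAQ, 1471 and 1396 in WT/-, and 1669 and 1543 in HAQ/-, with log2 fold changes of -0.19, -0.08 and -0.11. The largest difference of these 19S subunits from the control level, in either direction, was that of PSMC4 in WT/-, at 0.23.

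The assembly chaperones and the other activators were mixed. PSMG3, which pairs with PSMG4 in building the alpha ring, had 218 and 157 normalized counts in WT/HAQ, 169 and 188 in WT/-, and 219.8 and 182 in HAQ/-. It was lower in WT/HAQ, at -0.48 (-0.76 to -0.19), while the intervals of WT/- and HAQ/- held 0. PSMG4, whose window has the same ISRE letters as the induced subunits, had log2 fold changes of -0.38, 0.16 and -0.07. PSME4, the activator PA200, had 2046 and 2438, 2411 and 3104, and 1952 and 1979 normalized counts in the 3 lines, or log2 fold changes of 0.25, 0.36 and 0.02. PSME3, the nuclear PA28 gamma that is related to PSME1 and PSME2, had 3190.1 and 2725, 2971 and 2722, and 3205 and 3010.2. Its log2 fold changes were -0.23, -0.13 and -0.09, with an edgeR adjusted p of 0.253. The intervals of PSME3 were below 0 in all 3 lines, so that the PA28 relatives lay on opposite sides of their control level.

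With 1 library per line and treatment there was no test within a line, and a fold of at least 1.5 was used to name responses. Of the 5 induced subunits, 3 passed it in WT/HAQ (PSMB9, PSMB8 and PSME2), where 12.9% of all genes did. This count was 2 with total counts, which left PSME2 at 0.58, just under 1.5-fold, and 4 with a mean count of at least 50, which brought PSMB10 to 0.59, just past it. In WT/-, 2 passed (PSMB9 and PSMB8; 11.9% of all genes), and in HAQ/-, PSMB9 alone (6.77%). Of the 42 constitutive members, PSMA3 passed in WT/HAQ and in WT/- (in WT/- it was at 0.56 with total counts, under the fold), and none in HAQ/-. None was lowered by 1.5-fold, against 12.3%, 8.79% and 5.79% of all genes. All genes include ones at lower counts than any member, whose folds vary more. The median log2 fold change of the induced subunits was 0.61, 0.42 and 0.31 in the order WT/HAQ, WT/- and HAQ/-, that of the constitutive members 0.03, 0.11 and 0.02, and that of all genes -0.01, -0.00 and -0.01. With total counts in place of TMM scaling, the constitutive medians were -0.00, 0.05 and 0.01.

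**Figure D2:**
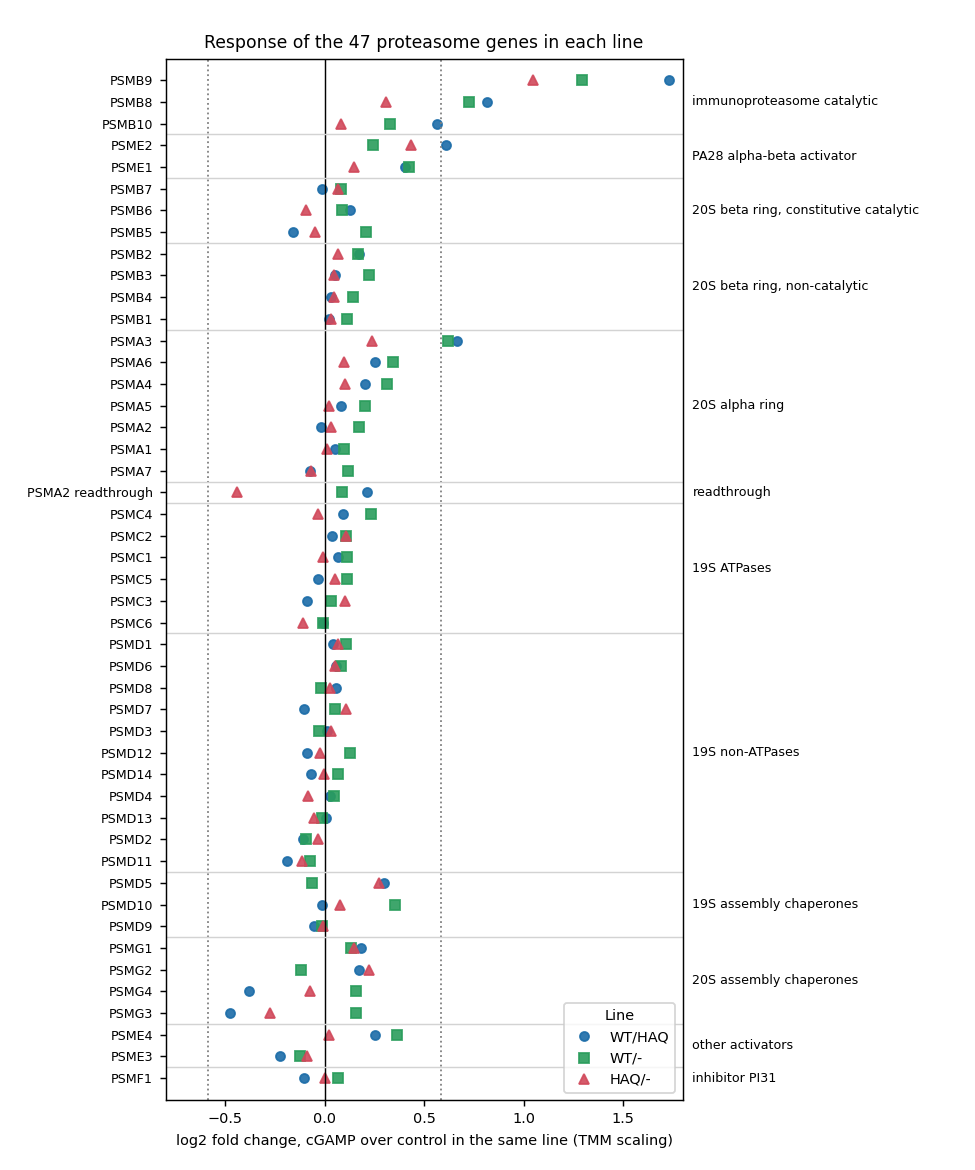
Log2 fold change, cGAMP over control, of each of the 47 members in each line, ordered by role, with dotted lines at 1.5-fold in either direction. PSMB9, PSMB8, PSME2 and PSMA3 lie past the upper line in at least 1 line, and no member lies past the lower line.

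For the constitutive members, counting intervals, which hold no spread between cultures, were read against those of all genes. Such intervals narrow with depth. Members averaged 192 or more counts and all genes analysed 10 or more, so the shares are not like for like. In WT/- the counting interval was above 0 for 19 of the 42 and below 0 for 2, against 22.4% and 22.3% of all genes, but with total counts in place of TMM scaling it was above 0 for 9 and below 0 for 4. In WT/HAQ it was above 0 for 8 and below 0 for 10 (24.2% and 28% of all genes), and in HAQ/- above 0 for 6 and below 0 for 4 (15.1% and 17.1%). Pearson's r over the 42 genes was 0.46 between WT/HAQ and WT/- (0.22 without PSMA3), 0.49 between WT/HAQ and HAQ/- (0.41) and 0.20 between WT/- and HAQ/- (0.04). These genes are not independent, and the points share the libraries.

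Which lines differed in their response was described for the induced subunits and tested over all genes. The log2 fold change was larger in both lines with a WT allele than in HAQ/- for PSMB8, PSMB9, PSMB10 and PSME1, 4 of 5, and for 16 of the 42 constitutive members, against 35.4% of all genes. It had one sign in both lines with a WT allele and the other in HAQ/- for 5 constitutive members and no induced subunit, against 19.6% of all genes, and for 5 to 8 constitutive members over the other scalings and filters. The difference between WT/HAQ and HAQ/- was 0.69 for PSMB9 (95% counting interval 0.37 to 1.004), 0.51 for PSMB8 (0.34 to 0.68), 0.48 for PSMB10 (0.20 to 0.77) and 0.26 for PSME1 (0.11 to 0.41). For PSMA3 it was 0.43 (0.27 to 0.58). For PSME2 it was 0.18 (-0.06 to 0.41). Between WT/- and HAQ/- the interval lay above 0 for PSMB8, at 0.42 (0.24 to 0.59), for PSME1, at 0.28 (0.13 to 0.43), and for PSMA3, at 0.38 (0.21 to 0.54). It held 0 for PSMB9, at 0.25 (-0.06 to 0.55), for PSMB10, at 0.25 (-0.03 to 0.52), and for PSME2, at -0.19 (-0.43 to 0.05). Of the 42 constitutive members, the interval for WT/- minus HAQ/- was above 0 for 14 and below 0 for 2, against 16.1% and 14.5% of all genes. Among the 14 were PSME4 at 0.34 (0.22 to 0.47) and PSMA6 at 0.24 (0.13 to 0.35). These counts are for TMM scaling. With total counts the constitutive median moved from 0.11 to 0.05 in WT/- and from 0.02 to 0.01 in HAQ/-. The difference is smaller then, and intervals close to 0, such as that of PSMD12 (0.01 to 0.29), no longer lie above 0. For WT/HAQ minus HAQ/- the interval was above 0 for 5 and below 0 for 4 of the 42, against 16.7% and 19.7% of all genes. All genes include ones at lower counts than any member, whose intervals are wider.

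These intervals cover counting error of single libraries and no spread between cultures. The edgeR test of the response in HAQ/- minus the mean response of WT/HAQ and WT/- called 0 of the 47 members and 1.18% of all genes (1.01% with a smaller and 0.172% with a larger response in HAQ/-), and DESeq2 called 0 members and 1.13% of all genes with an adjusted p. At an unadjusted p under 0.05 there were 3 members, PSMB8, PSMA3 and the PSMA2 readthrough gene, against 9.39% of all genes. The edgeR adjusted p was 0.369 for PSMB8, 0.480 for PSMA3, 0.673 for PSMB9, 0.737 for PSMB10 and 0.747 for PSME1. For PSME2 the fitted difference was 0.00 with an adjusted p of 0.9999. This test had 1 residual degree of freedom, and on simulated counts it recovered 19% of the genes whose response differed by 1 on the log2 scale and 0% of those that differed by 0.5.

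The balance between an induced catalytic subunit and its constitutive counterpart was read within each library, per kilobase of the main transcript, so that no scaling of libraries entered. PSMB9 per PSMB6 was 0.387 without cGAMP in WT/HAQ (95% counting interval 0.333 to 0.449) and 1.18 (1.05 to 1.31) with cGAMP. In WT/- it went from 0.666 (0.582 to 0.762) to 1.54 (1.36 to 1.76), and in HAQ/- from 0.358 (0.305 to 0.420) to 0.790 (0.683 to 0.914). The log2 change of this ratio was 1.61 (1.34 to 1.88) for the parent line, against 1.21 (0.94 to 1.48) for WT/- and 1.14 (0.83 to 1.46) for HAQ/-. The intervals of the clones overlapped, while their control ratios did not.

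PSMB8 per PSMB5 went from 0.904 to 1.78 in WT/HAQ, from 1.34 to 1.92 in WT/- and from 1.05 to 1.34 in HAQ/-. The WT/- control library thus had the same ratio as the HAQ/- library with cGAMP, 1.34 (1.22 to 1.48 in each). PSMB10 per PSMB7 went from 0.155 to 0.231 in WT/HAQ, from 0.281 to 0.332 in WT/- and from 0.151 to 0.153 in HAQ/-. PSMB7 remained in excess of PSMB10 in all 6 libraries, and in HAQ/- the log2 change of this ratio was 0.02 (-0.22 to 0.25). PSME2 per PSME1, the partners in PA28, lay between 0.423 and 0.532, and its log2 change was 0.20, -0.18 and 0.29 in WT/HAQ, WT/- and HAQ/-.

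**Figure D3:**
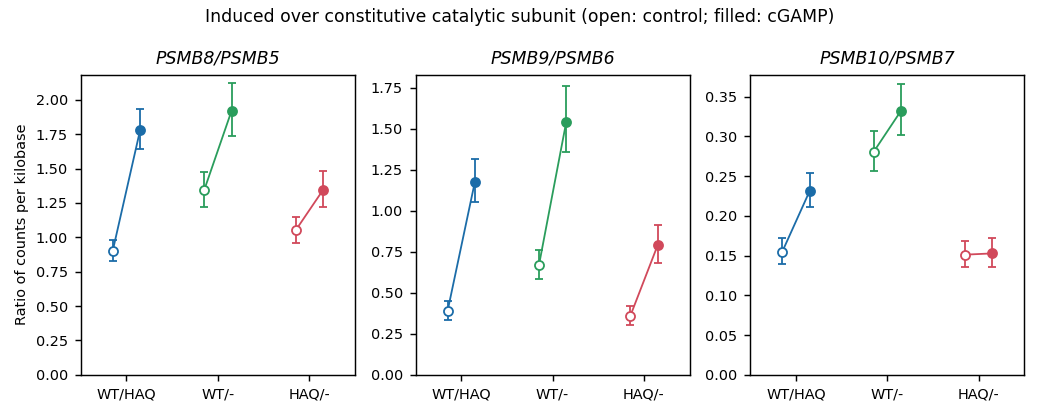
Ratio of counts per kilobase, induced over constitutive catalytic subunit, in each library, with open points for control, filled points for cGAMP and bars for the 95% counting interval. The ratio is highest in WT/- with cGAMP for all 3 pairs, and PSMB10 per PSMB7 stays at 0.151 and 0.153 in HAQ/-.

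Levels without cGAMP also differed between the lines, and both comparisons below share the WT/HAQ control library. In WT/- over WT/HAQ, PSMB10 was at a log2 ratio of 0.72 (0.54 to 0.90) and PSMB9 at 0.70 (0.47 to 0.93), both past 1.5-fold, as were 13% of all genes, and no member was under it, as were 9.87%. PSME2 was at 0.18 (0.02 to 0.34), PSMB8 at 0.09 (-0.03 to 0.22) and PSME1 at 0.03 (-0.07 to 0.14). The constitutive members went the other way: 40 of 42 were lower in WT/-, with a median of -0.20, where 50% of all genes were lower and 50% higher, and the exceptions were PSME4 at 0.24 and the PSMA2 readthrough gene at 0.40. PSMB5 was at -0.48 (-0.62 to -0.34). The WT/- control library therefore had more PSMB9 and PSMB10 and less of nearly every constitutive subunit than the parent.

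In HAQ/- over WT/HAQ all 5 induced subunits were lower, with PSME2 at -0.38 (-0.55 to -0.20), PSME1 at -0.25 (-0.35 to -0.15) and PSMB9 at -0.23 (-0.49 to 0.03). PSMB10 was at -0.14 and PSMB8 at -0.04, with intervals that held 0, and with total counts PSMB8 was at 0.03, so that 4 of the 5 were lower. No member differed by 1.5-fold, against 7.37% of all genes above and 8.6% below. The constitutive members had a median of -0.07, and 9 of 42 were higher and 33 lower, against 47.6% and 52.4% of all genes. With total counts the median was -0.00 and 19 of 42 were higher. IRF1, a transcription factor that acts on immunoproteasome genes, had normalized counts of 3252 in the WT/HAQ control library, 10982 in WT/- and 1307 in HAQ/-. With TMM scaling, all 5 induced subunits had this order of lines. NLRC5 (658, 683 and 488) and STAT2 (496, 883 and 471) had it too, while IRF9 was at 188, 545 and 190. The part of IRF1 in these levels was not tested. The order of PSMB9 without cGAMP was WT/-, WT/HAQ and HAQ/-, and the counting intervals of WT/HAQ and HAQ/- overlapped.

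**Figure D4:**
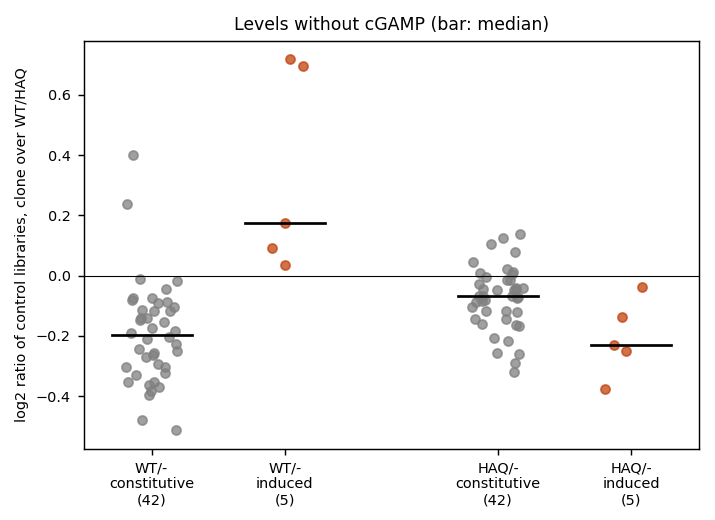
Log2 ratio of the control libraries of WT/- and HAQ/- over that of WT/HAQ for the 42 constitutive and the 5 induced members, with a bar at each median. In WT/- the medians are -0.20 and 0.18, and in HAQ/- they are -0.07 and -0.23.

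Genes around the proteasome were counted from lists. Of 16 proteasome-associated genes (assembly factors, ubiquitin receptors and the regulators of subunit transcription), the edgeR test called 0, with 1 at an unadjusted p under 0.05, against 3.23% and 25.3% of all genes. Of these 16, 5 were higher and 5 lower in all 3 lines, and their median log2 fold change was -0.11, 0.03 and 0.02 in WT/HAQ, WT/- and HAQ/-. POMP, the chaperone that completes the 20S particle, had log2 fold changes of 0.17, 0.27 and 0.04. NFE2L1, which drives transcription of constitutive subunits when proteasomes fail, was at 0.63, 0.39 and 0.14, with an edgeR adjusted p of 0.110. On the other side, DDI2, the protease that activates NFE2L1, was at -0.44, -0.13 and -0.11, TXNL1, a thioredoxin-like protein bound to the 19S particle, at -0.25, -0.10 and -0.10, and AKIRIN2, which carries proteasomes into the nucleus, at -0.29, -0.02 and -0.22. Of 14 genes of class I antigen processing, 3 rose (TAP1, TAP2 and ERAP2), none fell, and 13 were higher in all 3 lines (12 with total counts), against 2.27% of all genes called higher, 0.959% called lower and 23.8% higher in all 3 lines. TAP1, the peptide transporter that lies on the opposite strand with its nearest RefSeq start 488 bases from that of PSMB9, went from 1450 to 9406 normalized counts in WT/HAQ, from 1992 to 8955 in WT/- and from 1122 to 3352 in HAQ/-. The TAP1 log2 fold changes of 2.70, 2.17 and 1.58 had the same order of lines as those of PSMB9 and were larger in each line.

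The regulators of the interferon response IRF1, STAT2, IRF9 and NLRC5 rose in the test across the lines. NLRC5, the transactivator of class I genes and PSMB9, was at 1.84, 1.56 and 1.15, with an edgeR adjusted p of 0.0129 and the lowest value in HAQ/-. IRF1 was at 1.51, 0.72 and 1.72, with an edgeR adjusted p of 0.0444 and its smallest change in WT/-, where its control level was highest.

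Some counts may be shared with neighboring genes, since the strand setting of the counting is not stated. PSMB8 shares 602 exon bases with its antisense gene PSMB8-AS1 and 139 with PSMB9 on the other strand. PSMB8-AS1 had log2 fold changes of 0.23, 0.58 and 0.50 at 82.0 to 158 normalized counts, well below PSMB8. PSMB10 shares 640 exon bases with a readthrough gene on its own strand, ENSG00000261884, which was at 1.05, 0.53 and 0.52 on the log2 scale and at 68.0 to 186 normalized counts. PSME2 shares 216 exon bases with RNF31 on the other strand, which was at 0.83, 0.42 and 0.55. PSME1 shares 9 exon bases with EMC9, which was at 0.04, 0.03 and -0.14. Constitutive members overlap other genes too. Among them, PSMA6 shares 919 exon bases with ENSG00000258790 on its own strand. A deposited count that was not exactly whole arises when reads are split between genes. It was found in at least 1 library for 16 of the 47 members (34.0%) and for 29.8% of all genes analysed. PSMB8, PSMB10 and PSMA6 were among these members.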

How the data were processed

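Expected counts per gene, the estimated counts that RSEM gives, were deposited by the authors without normalization. STAR and RSEM, with GRCh38 and hg38, are named in the submitters' processing notes. Their versions, the annotation release and the strand setting are not given in the sources used here. Libraries were TruSeq mRNA libraries. Per the labels, there was 1 library per line and treatment, and 0 columns were left unused. Values were rounded to whole counts.

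Library sizes were scaled by TMM (edgeR 4.0.16, R 4.3.3). Normalized counts are scaled to the geometric mean of these sizes, folds used a floor of 3 counts, and genes averaging 10 or more counts per library were analysed. Tests were edgeR quasi-likelihood F tests called at an adjusted p under 0.05, with the line as a block because both libraries of a line come from the same cells. Counting intervals are at 95% (Wilson for ratios of 2 counts, exact Poisson for levels, delta method for differences) and cover counting error only. Other tools were DESeq2 1.42.0 and Python 3.11.15 (pandas 2.3.3 and numpy 2.4.6 for tables, scipy 1.17.1 for intervals, matplotlib 3.10.9 for figures). Alternatives were no block, DESeq2, DESeq2 size factors, total counts, other filters, floors and folds, unrounded counts, and each line left out. Tested on simulated counts for 15126 genes, the treatment test recovered 77% of changes of 1 and 28% of changes of 0.5 on the log2 scale.

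Positions and lengths of the Ensembl canonical transcript are from GENCODE release 44, which holds 56434 of the 60498 identifiers and all 50 genes with a matching symbol. Promoter windows are from RefSeq. Full values were given to the induced subunits, the constitutive catalytic subunits, members past 1.5-fold in a line and the 3 constitutive members at each end of the mean log2 fold change. The members, lists, motifs and rules were chosen with earlier results of these data known, and 1 gene of the list of interferon-response regulators is not reported here. PSMA4, PSMB4, PSMC1, PSMC4, PSMD4, PSMG4 and the PSMA2 readthrough gene were also named after their values were seen.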

Additional observations from a re-analysis of the deposited data

Results flagged for a closer look

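For 5 constitutive members the log2 fold change had one sign in both lines with a WT allele and the other in HAQ/-, a pattern that 19.6% of all genes showed. In the order WT/HAQ, WT/- and HAQ/-, it was 0.21, 0.08 and -0.44 for the PSMA2 readthrough gene, 0.13, 0.08 and -0.09 for PSMB6, 0.07, 0.11 and -0.01 for PSMC1, 0.09, 0.23 and -0.04 for PSMC4, and 0.03, 0.05 and -0.09 for PSMD4. The edgeR test of the difference in response called none of them, with an adjusted p of 0.523 for the PSMA2 readthrough gene and of at least 0.901 for the other 4, and each line had 1 library per treatment. All 3 counting intervals of PSMB6 held 0, and so did 2 of the 3 for each of the other 4. With total counts PSMD4 was at -0.00, -0.02 and -0.10, one sign in all 3 lines, and with DESeq2 size factors PSMC1 was at 0.00 in HAQ/-, above 0 as in the other lines.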

How the results depend on the processing

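Which members the treatment test called depended on the lines and the tool. It called 1 member in the main design, PSMB9. It called 0 without the line as a replicate block, where the adjusted p of PSMB9 was 0.219, and 3 (PSMA3, PSMB8 and PSMB9) with DESeq2, which called 9.14% of all genes, or with a mean count of at least 1 (4.83%), against 3.23% in the main design. With 1 line left out the count ranged from 0 to 6: it was 0 without WT/-, where no gene in the table was called, 1 without WT/HAQ (1.23% of all genes), and 6 without HAQ/- (the 5 induced subunits and PSMA3), where 17.3% of all genes were called, a larger share than of the members. DESeq2 size factors, total counts and a mean count of at least 50 gave 1. The test of the difference in response called 0 members under all 5 of its alternatives. The cause of these differences was not tested.

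Counts of members past a fold moved with the fold. At 1.2-fold, 5, 4 and 3 induced subunits were raised in WT/HAQ, WT/- and HAQ/-, 2, 5 and 1 constitutive members were raised, and 2 constitutive members were lowered in each of WT/HAQ and HAQ/-. Of all genes, 24.2%, 23% and 15.5% were raised by 1.2-fold in the 3 lines and 26.6%, 22.5% and 17.3% lowered. At 2-fold, 1 induced subunit, PSMB9, was raised in each of the 3 lines, and 0 constitutive members, against 7.38%, 6.58% and 3.11% of all genes. With total counts, 0 constitutive members were raised in WT/-, since PSMA3 was at 0.56, and PSME2 at 0.58 no longer passed 1.5-fold in WT/HAQ, which left 2 induced subunits there. With a mean count of at least 50 there were 4, with PSMB10 at 0.59. With a mean count of at least 1, which adds the PSMA1 readthrough gene, 2 constitutive members were raised in WT/- and 1 was lowered in each of WT/HAQ and HAQ/-. Of the named genes' values, 394 kept direction and call, 9 passed the threshold under an alternative only, 2 no longer passed it, and 11, none of them called, turned sign. The average change of PSMB5, -0.0023, was 0.0048 with DESeq2, 0.0044 with its size factors and 0.0102 with a mean count of at least 50, and ranged from -0.105 to 0.0798 with 1 line left out (0.0181 without HAQ/-). That of PSMB6, 0.0397, ranged from -0.0054 without WT/HAQ to 0.106 without HAQ/-. The difference in response of PSME2, 0.0037, was -0.0056 with a mean count of at least 1 and -0.0109 with at least 50. The change of PSMB7 in WT/HAQ, near 0, ranged from -0.04 to 0.01 over the scalings, filters and floors. At the lowest mean count of a member, 192 for PSMG3, counting error alone left an interval of -0.76 to -0.19 in WT/HAQ.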
